A study of Drosophila melanogaster with 18 samples.

Results

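Transcript levels of 8 genes of the DNA damage response were followed in heads of the fruit fly Drosophila melanogaster through adult life and in a foxo mutant. The genes were the Ku genes Irbp and Ku80, the damage kinase genes tefu, mei-41 and lok, the transcription factor genes p53 and Irbp18, and the helicase gene Blm. They were selected on their names and on the rise of Irbp and Ku80 with age in these libraries, and they are 8 of the 10884 genes of the male table and 8 of the 10480 genes of the female table. The changes with age that chose them are therefore given below as a description without a test, for all 8 genes, and the comparison with the mutant was tested.

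The study held 18 libraries of polyadenylated head RNA in 6 groups of 3, from flies kept at 25 °C. Males of the w1118 control line 5905, called wild type here, were taken 3, 15, 30 and 45 days after eclosion. Females were taken at day 3, from the same 5905 line and from mutants of genotype foxoc431/c431. FOXO is a transcription factor held back by insulin signalling. The lesion carried by the allele and the background of the mutant line were not given in the sources used here. Nothing in the labels tells whether the 3 replicates of a group came from separate cultures, and a p-value here measures only the spread between these samples, which may be technical.

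Ku is a ring of Ku70 and Ku80 protein that slides onto broken DNA ends and starts their rejoining without a template (non-homologous end joining). In flies Ku70 is encoded by Irbp, and Ku also protects chromosome ends. Breaks are signalled by the kinases ATM (tefu) and ATR (mei-41), which act on the checkpoint kinase Chk2 (lok) and through it on p53. Most cells of the adult head no longer divide, so template-free rejoining is the main route open to them for double-strand breaks.

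Irbp (FBgn0011774) lies on chromosome arm 3R at 11410047 to 11412440 on the plus strand in dm6 coordinates, and Ku80 (FBgn0041627) on 2L at 15768630 to 15771159 on the minus strand. The ATM gene tefu lies on 3R at 15232212 to 15242236, the ATR gene mei-41 on X at 16391698 to 16399850 and lok on 2L at 20061422 to 20064381. p53 lies on 3R at 23049657 to 23054082, Irbp18 on 3L at 11097446 to 11098186 and Blm on 3R at 11736810 to 11741783. Of the 4 genes on the arm that carries foxo, tefu starts 1.18 Mb, Blm 2.32 Mb, Irbp 2.65 Mb and p53 8.99 Mb from it. Despite its name, Irbp18 is not a Ku gene: it encodes a C/EBP-type leucine zipper protein, which pairs with the stress factor Xrp1.

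All 8 genes were detected in every male library, and all passed the filter of at least 10 normalized counts in at least 3 libraries, as 8921 genes did. A normalized count here is a read count divided by a library's size factor, and libraries held 2999956 to 4102364 reads. Each of the 8 genes rested on 15 to 192 reads per library, for which counting error alone is 7.22% to 25.8% of the value. Their means over the 12 libraries ran from 28.2 (lok) to 149 (tefu) normalized counts, while the median gene tested stood at 119. The spread between replicates of Irbp at day 3 (19.5% of the mean) was close to its counting error (18.9%). The libraries farthest from their own group were day 45 replicate 3 and day 3 replicate 1: the chi-square per degree of freedom between replicates was 6.69 and 8.35 for the first, 5.02 and 5.62 for the second, and 2.07 to 4.26 for the other pairs. Photoreceptor markers, which heads should hold, summed to at least 67897.0 normalized counts in every library.

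In male heads the level of Irbp stood higher at each successive age. It was 25.65, 38.02 and 31.45 normalized counts in the 3 libraries of day 3, and 43.93, 40.84 and 52.64 at day 15. It was 66.67, 72.2 and 57.72 at day 30 and 85.16, 72.91 and 96.45 at day 45. No library of one age overlapped those of the next, so the 4 ages stood in strict order. The highest day 30 library (72.2) and the lowest of day 45 (72.91) lay less than the value of 1 read apart. This order without overlap was met by 58 of 8921 genes (0.65%), and by 1 of the 8, Irbp itself. Irbp was chosen for its rise in these same libraries, so nothing is read from its place among them. The day 3 mean was 31.7 ± 6.19 and the day 45 mean 84.8 ± 11.8 (SD, n = 3 each), a 2.64-fold difference. On the scale of log2(normalized count + 1), on which all changes with age are given, this was 1.40 (SE 0.17, 95% interval 1.05 to 1.76). By steps, the log2 difference was 0.53 from day 3 to day 15, 0.51 from day 15 to day 30 and 0.36 from day 30 to day 45 (SE 0.17 each). Between days 3 and 45 it was 1.26 without day 3 replicate 1 and 1.30 without day 45 replicate 3.

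Ku80, the partner subunit, followed at a lower level. It was 24.43, 20.01 and 16.26 normalized counts at day 3, 25.78, 36.65 and 39.27 at day 15, 32.84, 37.1 and 45.13 at day 30, and 51.99, 54.47 and 45.52 at day 45. Day 3 lay below and day 45 above all other ages, while days 15 and 30 overlapped. Its highest day 30 library (45.13) and lowest day 45 library (45.52) lay less than the value of 1 read apart. Its mean was 20.2 ± 4.09 at the start and 50.7 ± 4.62 at the end (SD, n = 3 each), a 2.46-fold difference, with a log2 difference of 1.30 (SE 0.20, 95% interval 0.87 to 1.73). Without day 3 replicate 1 this was 1.44, and without day 45 replicate 3 it was 1.37. Its log2 difference from day 3 was already 0.71 at day 15 and 0.90 at day 30 (SE 0.20 each).

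**Figure D1:**
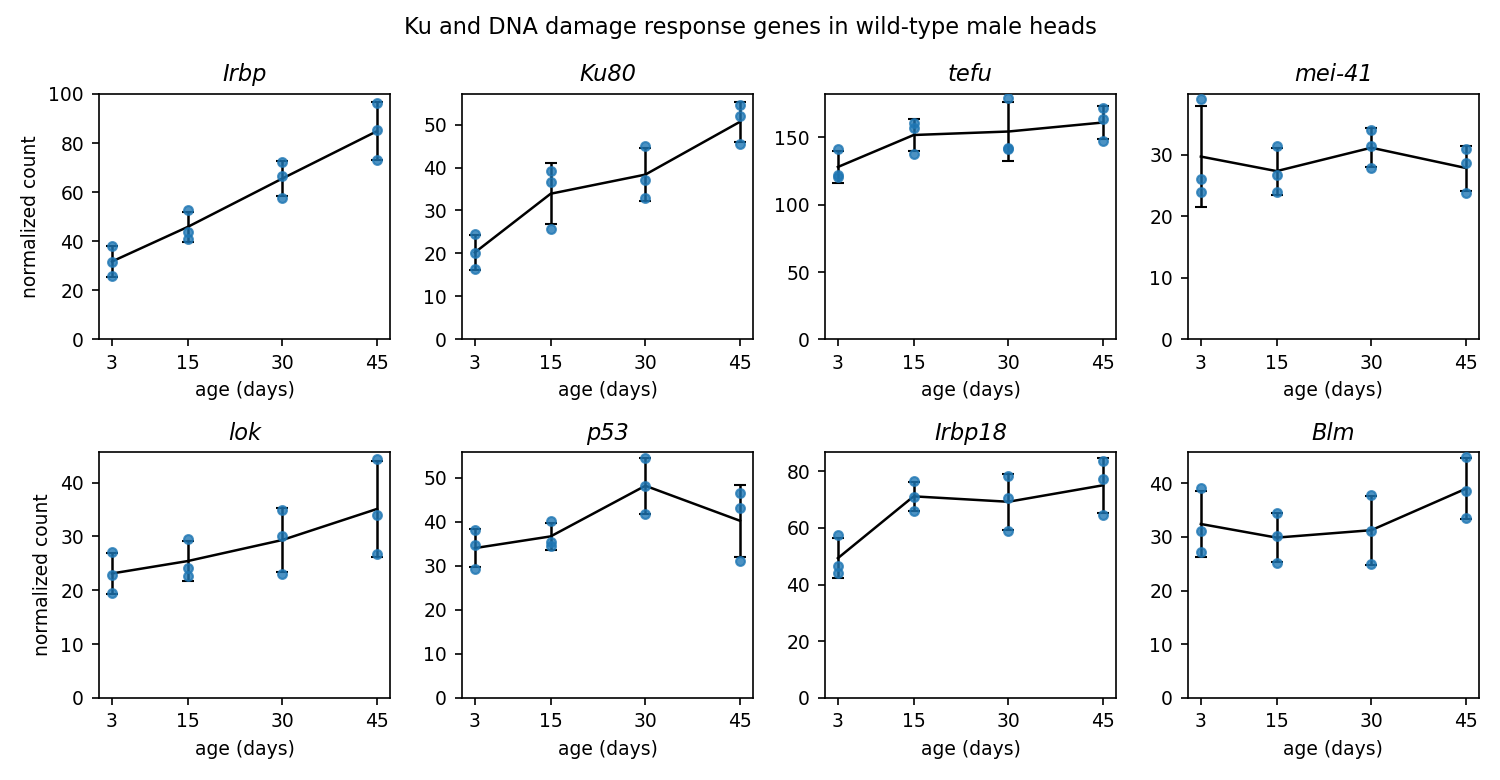
Normalized counts (vertical axes, each from 0) of the 8 genes against age in days in wild-type male heads. Points are single libraries, and lines join the mean with SD (n = 3 per age). Irbp goes from a mean of 31.7 to 84.8 and Ku80 from 20.2 to 50.7, while mei-41 stays between 27.3 and 31.1.

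Since both proteins are needed for one ring, the ratio of the 2 transcripts was taken per length of annotated exon. Irbp stood above Ku80 in 12 of 12 libraries, at 1.13 to 2.27 times its level per kilobase. The ratio was 1.75 ± 0.54, 1.49 ± 0.32, 1.88 ± 0.44 and 1.82 ± 0.42 at days 3, 15, 30 and 45 (SD, n = 3 each). The ratios of the 4 ages overlapped throughout, so a shift in the balance of the Ku transcripts smaller than this spread was not detectable.

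**Figure D2:**
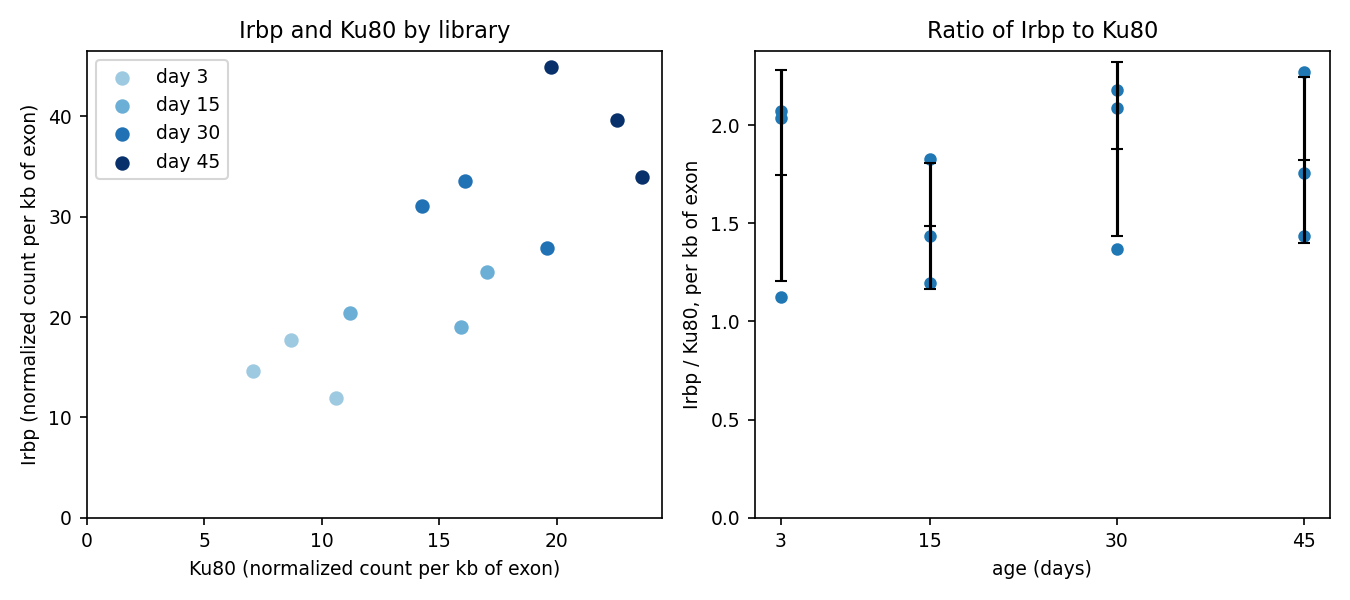
Left, Irbp against Ku80 in each male library, both in normalized counts per kilobase of exon, coloured by age. Right, the ratio of Irbp to Ku80 per kilobase against age in days, with points for libraries and bars for mean and SD (n = 3 per age). Both levels are lowest at day 3 and highest at day 45, and the ratio stays between 1.13 and 2.27.

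Of the 3 damage kinases, tefu (ATM) had the highest level. It was 141.67, 122.06 and 120.36 normalized counts at day 3, and 172.1, 147.49 and 163.65 at day 45. The lowest day 45 library thus stood above the highest of day 3. The log2 difference was 0.33 (SE 0.11, 95% interval 0.09 to 0.57), and it stood at 0.24 by day 15, where the libraries (137.86 to 160.42) still overlapped those of day 3. The gene lok (Chk2) was at 19.54, 27.01 and 22.77 at day 3 and at 34.06, 26.82 and 44.43 at day 45. Its day 45 libraries overlapped those of day 3 by 1 library, and the log2 difference was 0.57 (SE 0.22, 95% interval 0.09 to 1.04). The gene mei-41 (ATR) was at 39.08, 24.01 and 26.02 at day 3 and at 28.68, 31.01 and 23.84 at day 45, with overlap at every age. Its log2 difference of -0.07 has a 95% interval of -0.51 to 0.37, which leaves room for changes in both directions.

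The transcription factor genes had other courses. Irbp18 was at 46.41, 44.02 and 57.47 normalized counts at day 3 and at 76.39, 65.98 and 71.02 at day 15, without overlap. It then stood at 70.65, 78.21 and 58.77 at day 30 and at 64.54, 77.1 and 83.45 at day 45. The log2 difference from day 3 was 0.53 at day 15, 0.48 at day 30 and 0.60 at day 45 (SE 0.15 each), while day 30 differed from day 15 by -0.05 and day 45 from day 30 by 0.12. The difference from day 3 was thus in place by day 15. Its partner gene Xrp1, far more abundant, stood at 1686.2 ± 33.3 normalized counts on day 3, at 2497.3 ± 152 on day 15 and at 3256.1 ± 262.5 on day 45 (SD, n = 3 each).

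p53 was highest at day 30. It was at 29.31, 38.02 and 34.7 normalized counts at day 3, 35.33, 34.56 and 40.1 at day 15, 41.79, 48.13 and 54.57 at day 30, and 43.03, 31.01 and 46.6 at day 45. Day 30 lay above days 3 and 15 without overlap, and day 45 overlapped every other age. The log2 difference from day 3 was 0.49 at day 30 (SE 0.18, 95% interval 0.11 to 0.87) and 0.22 at day 45 (95% interval -0.16 to 0.60). Blm, a RecQ helicase that unwinds recombination intermediates, was at 39.08, 31.02 and 27.11 at day 3 and at 44.82, 38.55 and 33.6 at day 45, and its ages overlapped. Its log2 difference at day 45 was 0.27 (SE 0.20, 95% interval -0.17 to 0.70).

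**Figure D3:**
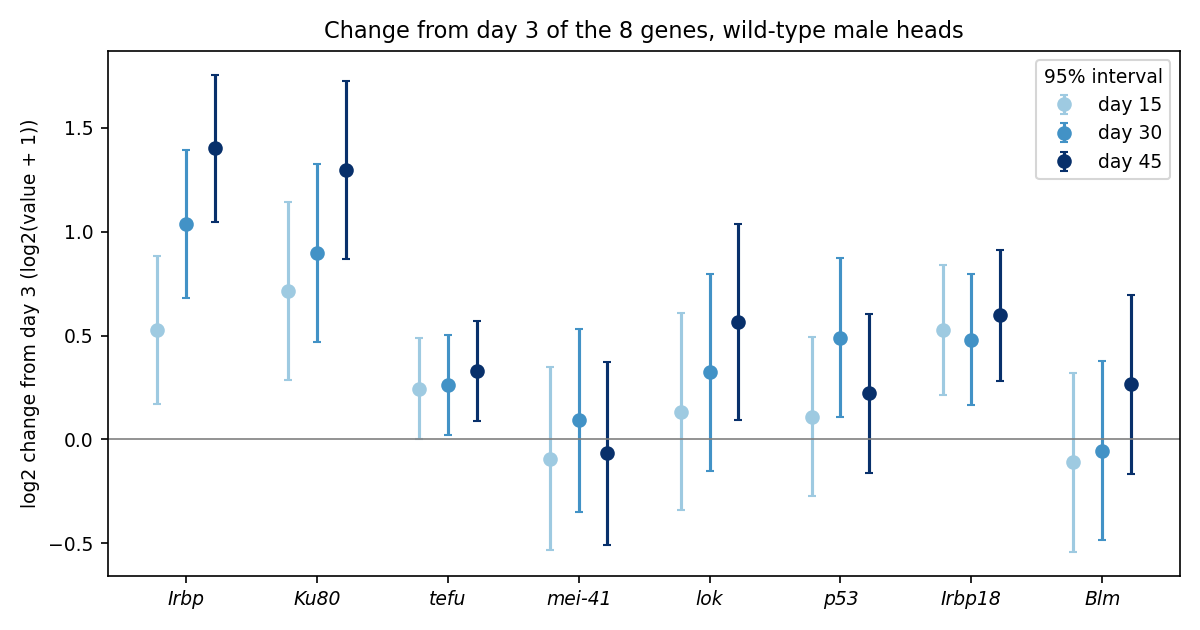
Change from day 3 of each of the 8 genes at days 15, 30 and 45 in wild-type male heads, as the difference of log2(normalized count + 1), with 95% intervals from the model of all 12 libraries (limma). Irbp and Ku80 reach 1.40 and 1.30 at day 45, and the other 6 genes lie between -0.07 and 0.60.

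As background to these values, 1555 of the 8921 genes tested (17.4%) were called higher at day 45 than at day 3 and 1629 (18.3%) lower, at a limma p adjusted by Benjamini-Hochberg under 0.05. At day 30, 15.0% of genes were called higher than at day 3, and at day 15 it was 5.95%. The 8 genes are given no call with age, since the rise of Irbp and Ku80 chose them. In either direction 13.4%, 31.5% and 35.7% of genes were called at days 15, 30 and 45. Among the 3480 genes with a mean level in the range of the 8 genes, 4.68%, 13.4% and 16.1% were called higher at these ages. All libraries lay above those of day 3 for 3 of the 8 genes and 15.6% of genes at day 15, for 4 and 21.4% at day 30, and for 4 and 22.4% at day 45. The 3 comparisons share the day 3 libraries, and since the genes were listed for this change nothing is read from these counts. A difference of at least 1 on the log2 scale was reached by 2.98% of genes, among them Irbp and Ku80, which were chosen for their rise.

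Per kilobase of exon the order of the 8 genes differed between ages. At day 3 Irbp18 was highest, at 80.3 ± 11.7 normalized counts per kilobase, followed by p53 (15.9 ± 2.06), tefu (15.2 ± 1.41) and Irbp (14.8 ± 2.88), whose ranges of mean ± SD overlapped. Next came lok (9.47 ± 1.54), Ku80 (8.78 ± 1.77) and Blm (6.74 ± 1.27), where the range of each gene overlapped that of its neighbour, and then mei-41 (3.76 ± 1.04; SD, n = 3 each). At day 45 Irbp18 was at 122 ± 15.7 and Irbp at 39.5 ± 5.48 normalized counts per kilobase. Ku80 was then at 21.99 ± 2.01, and tefu (19.1 ± 1.49), p53 (18.8 ± 3.82) and lok (14.4 ± 3.63) followed, where again the ranges of mean ± SD of neighbours overlapped. Blm (8.11 ± 1.17) and mei-41 (3.53 ± 0.46; SD, n = 3 each) came last. These levels rest on exon lengths of a current annotation, which may differ from the authors'.

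Some of these genes overlap others on the opposite strand. No source says that the libraries keep strand, and reads of shared bases cannot then be told apart. An antisense RNA, asRNA:CR46089, shares 812 bases (38.0%) of the exons of p53, and the count of p53 is uncertain to that extent. Over the 4 ages asRNA:CR46089 stood at means of 1.58 to 6.12 normalized counts, with its highest mean at day 30. CG33947 shares 95 exon bases (15.5%) with Irbp18, and it fell from 27.9 ± 5.69 to 12.4 ± 0.64 normalized counts (SD, n = 3 each) between day 3 and day 45 (log2 change -1.09, SE 0.27, limma adjusted p = 0.00419), against the direction of Irbp18. vls shares 121 bases (4.96%) with lok, and CG9981 and CG14721 share 69 and 68 bases with mei-41 and Blm. The exons of Irbp, Ku80 and tefu share no bases with those of another annotated gene, although an intron of Irbp holds a snoRNA gene.

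The genes most like Irbp and Ku80 over the 12 male libraries were taken by Pearson correlation of log2(normalized count + 1), over genes whose mean reached 50. For Irbp these were the virus-induced gene vir-1 (r = 0.974), the cysteine desulfurase gene Nfs1 (0.971), whose product builds iron-sulphur clusters, and the imaginal disc growth factor gene Idgf3 (0.970). vir-1 went from a mean of 2068.8 at day 3 through 2723.91 and 3543.89 to 4153.23 normalized counts at day 45. For Ku80 they were the septate junction gene Cont (r = 0.9499), the cytochrome P450 gene Cyp28a5 (0.9485) and RPA1 (0.943), which encodes the large subunit of the protein that coats single-stranded DNA. Between Irbp and Ku80 themselves r was 0.8115. By this measure 541 of 6388 genes were more like Irbp than Ku80 was, and 243 of 6389 were more like Ku80 than Irbp was. Ku80 had a mean of 35.8 normalized counts, below the 50 required of the genes compared. Its counting error was 23.51% of the value at day 3 and 13.65% at day 45, which can lower r. How closely the Ku genes vary together is therefore not read from these counts. The correlations describe libraries that share their ages, across which 3184 genes were called between days 3 and 45.

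The wider DNA damage and repair pathway was described with 87 further genes in 7 lists, which exclude the 8 genes above. Of these, 77 were matched in the male table and 66 passed the filter. At day 45, 16 of the 66 (24.2%) were called higher than at day 3 and 1 lower, against 17.4% and 18.3% of all genes tested. The median log2 change of the 66 was 0.18, and that of all genes tested 0.004. The count is not stable: it was 8 by DESeq2, 9 without day 3 replicate 1 and 10 without day 3 replicate 2 or day 45 replicate 1. At day 30, 10 rose (15.2%, against 15.0% of all genes tested) and 2 fell. At day 15, 3 rose (rad50, nbs and Xrp1; 4.55%, against 5.95%) and 1 fell (Tdg). The call of nbs at day 15 was marginal (limma adjusted p = 0.0488), and its list had 1 call in place of 2 under 14 of 21 alternatives, among them the replicate block, edgeR, DESeq2 and the loss of any 1 library of day 3 or day 15.

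Of the 7 genes for double-strand break ends, 2 rose by day 45 (28.6%, against 17.4% of all genes tested). rad50, a subunit of the complex that tethers broken ends, was at 84.27, 93.05 and 106.26 normalized counts at day 3 and at 148.8, 153.36 and 148.47 at day 45. Its log2 change was 0.67 (SE 0.11, limma adjusted p = 0.000215), and day 30 stood at 153.25 to 167.46. DNAlig4, the ligase that seals the ends which Ku holds, went from 46.4 ± 10.9 to 77.1 ± 15.2 (SD, n = 3 each), a log2 change of 0.73 (SE 0.20, limma adjusted p = 0.00804). Without day 3 replicate 1 its log2 change was 0.53 and did not pass. The partners of rad50 did not pass at day 45, mre11 at 0.25 (limma adjusted p = 0.184) and nbs at 0.33 (limma adjusted p = 0.0649).

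Among 13 checkpoint genes 3 rose (23.1%, against 17.4% of all genes tested) and 0 fell. RPA1 was at 172.21, 170.09 and 170.24 normalized counts at day 3 and at 268.02, 264.82 and 261.19 at day 45, with a log2 change of 0.63 (SE 0.08, limma adjusted p = 1.94e-05). MCPH1, a BRCT-domain gene, rose from 80.03 ± 3.03 to 119.9 ± 6.40 (SD, n = 3 each), a log2 change of 0.58 (SE 0.11, limma adjusted p = 0.000501). mus304, the ATR partner ATRIP, was at 6.11, 11.01 and 20.6 at day 3 and at 18.82, 22.63 and 31.43 at day 45, with overlap (log2 change 1.01, SE 0.33, limma adjusted p = 0.0235). Its call was lost under 5 of 20 alternatives. Among these were the fits without day 3 replicate 1 (0.62) or 2 (1.00) and without day 45 replicate 3 (0.82). The Chk1 gene grp stood at -0.05 (limma adjusted p = 0.774).

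Among 9 genes of the p53 pathway and apoptosis 2 rose (22.2%, against 17.4% of all genes tested) and 0 fell. RnrL, the large subunit of ribonucleotide reductase, which makes the building blocks of DNA, had 13.43, 15.01 and 10.84 normalized counts in the day 3 libraries and 28.68, 40.23 and 40.1 in those of day 45. Its groups did not overlap, and its log2 change of 1.40 (SE 0.24, limma adjusted p = 0.000193) was as large as that of Irbp. RnrS, the small subunit of the same enzyme, did not pass, at 0.30 (SE 0.25, limma adjusted p = 0.381). Xrp1 rose by 0.95 (SE 0.08, limma adjusted p = 2.55e-07). The cell death genes did not pass: hid stood at -0.37 (limma adjusted p = 0.143) and skl at 0.36 (limma adjusted p = 0.308). The killer gene rpr failed the filter, with 7.97 ± 0.90 normalized counts at the youngest age and 5.23 ± 1.68 at the oldest (SD, n = 3 each).

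Of 12 genes of homologous recombination 2 rose and 0 fell, and these 16.7% lie next to 17.4% of all genes tested. The count was 0 without day 3 replicate 1, day 3 replicate 2 or day 45 replicate 2, and 1 without day 45 replicate 1 or by DESeq2. SMC6, a subunit of a complex that holds DNA during repair, stood 0.40 higher (SE 0.14, limma adjusted p = 0.0374). Its call was lost under 5 of 21 alternatives. Among these were the fits without day 3 replicate 1 (0.32) or 2 (0.43) and day 45 replicate 1 (0.29) or 2 (0.38). Gen, a nuclease that cuts recombination junctions, had a mean of 4.68 ± 2.64 normalized counts on day 3 and 13.6 ± 7.46 on day 45 (SD, n = 3 each), with overlap (log2 change 1.34, SE 0.44, limma adjusted p = 0.0239). It passed the filter only through later ages, and its call was lost under 4 of 20 alternatives. Among these were the fits without day 3 replicate 1 (log2 change 1.03) or 2 (1.30) and without day 45 replicate 2 (0.96).

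Of 18 genes of excision and single-strand break repair 6 rose (33.3%, against 17.4% of all genes tested) and 1 fell. The count of 6 was 1 by DESeq2, 2 without day 45 replicate 1 or 3, and 3 without day 3 replicate 1, day 3 replicate 2 or day 45 replicate 2. The 3 largest rises were those of the flap nuclease gene Fen1 (0.90, SE 0.31), the alkyltransferase gene agt (0.72, SE 0.23) and XRCC1 (0.51, SE 0.17), a scaffold of break repair, with limma adjusted p-values of 0.0303, 0.0232 and 0.0268. Fen1 had under 10 normalized counts in every day 3 library and passed the filter only through later ages. Its call was lost under 7 of 20 alternatives. Among these were the fits without day 3 replicate 2 or 3 or without any 1 library of day 45 (0.82 to 0.94). That of agt was lost under 4 of 20 alternatives. Among these were the fits without day 3 replicate 1 (0.49) and day 45 replicate 1 (0.65) or 2 (0.72). That of XRCC1 was lost under 5 of 21 alternatives. Among these were the fits without day 3 replicate 1 (0.47) or 2 (0.50) and day 45 replicate 1 (0.42) or 3 (0.52). The gene that fell, named after its values were seen, was the DNA glycosylase gene Tdg (log2 change -0.39, SE 0.09, limma adjusted p = 0.00219).

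Of 4 mismatch repair genes Pms2 rose (0.57, SE 0.18, limma adjusted p = 0.0208), a call lost under 4 of 20 alternatives. Among these were the fits without day 3 replicate 1 (0.44) or 3 (0.55) and without day 45 replicate 1 (0.46). Of the Fanconi anaemia pathway, which handles crosslinked DNA, Fancm stood at 0.58 at day 30, where it passed (SE 0.17, limma adjusted p = 0.0124), and at 0.41 at day 45 (limma adjusted p = 0.0594). Fancd2 stood at 0.55 at day 45 (limma adjusted p = 0.107), and no gene of the 3 tested passed at that age.

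**Figure D4:**
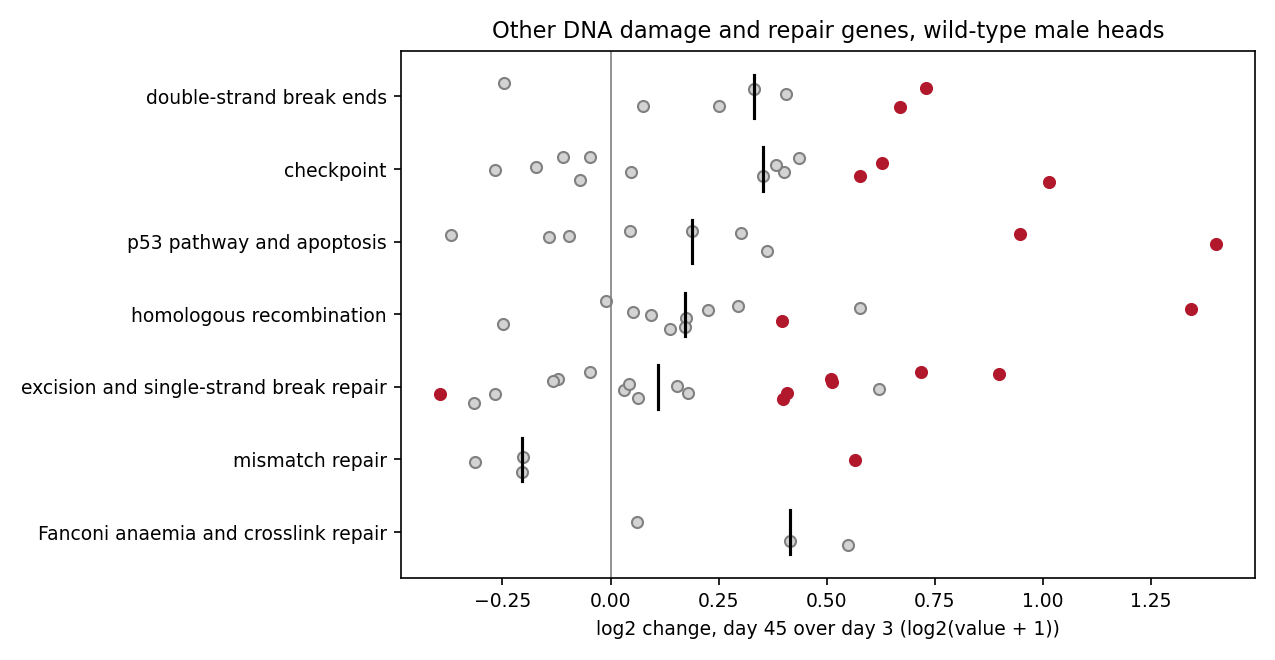
Log2 change from day 3 to day 45 of the 66 further DNA damage and repair genes tested, by list, in wild-type male heads. Red points passed a limma adjusted p of 0.05 (16 higher and 1 lower), grey points did not, and black bars are list medians. Most red points lie to the right of 0, and each list also holds genes near or below 0.

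Marker genes moved over the same ages. Cell proliferation markers, 9 of 12 in the table, summed to 33.6 to 42.7 normalized counts at day 3 and 54.2 to 68.1 at day 45, with 5 of the 9 under 10 in every library. They did not move together: between days 3 and 45 the means of CycA (7.96 to 4.93) and stg (5.25 to 2.48) went down. Those of CycB, CycB3, Cdk1, Mcm2, Mcm5, polo and aurB went up. The only one that passed the filter, Mcm2, did so through later ages alone: it was at 6.51 to 8.0 in the day 3 libraries and at 16.13 to 17.6 in those of day 45. RnrL, RPA1 and Fen1 also serve DNA replication. The 6 neuronal markers summed to 21404.1 to 26841.1 at day 3 and 13216.4 to 13497.7 at day 45, and 5 of them fell and 0 rose (limma). The 6 glial markers summed to 9499.7 to 11000.5 and 8137.9 to 9157.9, but 3 of them rose (repo, wrapper and moody) and 2 fell (Eaat1 and alrm). The 10 hemocyte markers summed to 4842.6 to 5674.3 at day 3 and 4611.0 to 4743.6 at day 45, and of 9 tested 3 rose (Hml, NimC1 and srp) and 4 fell (Col4a1, vkg, PPO1 and PPO2). The 8 fat body markers summed to 18128.1 to 19159.9 at day 3 and 20023.8 to 22091.3 at day 45, and of 6 tested 1 rose (Yp2, which passed the filter only through later ages). The 6 photoreceptor markers, whose sum is mostly ninaE, summed to 104242.5 to 121422.7 and 67897.0 to 117707.0, and 2 of them rose (Rh3 and Rh6) while 3 fell (trp, inaD and ninaC). Of 8 germ line markers 3 were in the table, at a sum of 23.3 or less in every library. Fewer cells of a type and less RNA per cell cannot be told apart in whole heads, and the part of these shifts in the changes above was not tested.

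Females labelled foxo mutant, of genotype foxoc431/c431, were compared with wild-type females. The comparison asks which transcripts differ between these genotypes in heads taken at day 3. For none of the 8 genes was a difference called: 0 of 8 had an adjusted p under 0.05 in the authors' deposited table, and 0 of 8 an unadjusted p under 0.05. No values per female library were analysed here, so no other tool was run. Of 9860 genes with an adjusted p, 1259 (12.8%) were called in the authors' deposited table, 6.26% higher and 6.51% lower. Of the 2992 genes with a mean in the range of the 8 genes (28.1 to 125), 7.05% were called. The foxo transcript itself stood higher in the females labelled mutant by 0.33 on the log2 scale in the authors' deposited table (SE 0.09, adjusted p = 0.00465). With the lesion not known here, that value does not check the labels. Marker genes differed as well: 6 of 6 neuronal markers were called lower in the authors' deposited table, and 6 of 10 hemocyte markers higher. Of 7 fat body markers 5 were called higher there (to, fit, Yp1, Yp2 and Yp3) and 1 lower (apolpp). Also called were 2 of 9 proliferation markers, CycB and Mcm2, both higher, and 1 of 6 photoreceptor markers, Rh3, lower. Of 6 glial markers 0 were called. The part of these differences in the values of the 8 genes was not tested.

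For Irbp the authors' deposited table gives a mean of 54.6 normalized counts and a log2 change of mutant over wild type of -0.08 (SE 0.19, adjusted p = 0.884). The 95% interval from that SE, -0.46 to 0.29, spans 0.73 to 1.23 times the wild-type level. For Ku80 the authors' deposited table gives a mean of 34.7 and a log2 change of 0.08 (SE 0.21, adjusted p = 0.895), with an interval of 0.80 to 1.41 times. With the SE as given, these libraries leave room for changes of either Ku gene across its interval.

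Among the kinase genes, the authors' deposited table gives log2 changes of 0.00 for tefu (SE 0.15, adjusted p = 0.996), -0.30 for mei-41 (SE 0.21, adjusted p = 0.458) and -0.26 for lok (SE 0.22, adjusted p = 0.576). For the other 3 genes the authors' deposited table gives 0.07 for p53 (adjusted p = 0.915), -0.15 for Irbp18, named CG6272 there (adjusted p = 0.712), and 0.14 for Blm (adjusted p = 0.789). With the SE of the authors' deposited table, the 95% intervals of the 8 genes reached from -0.72 (mei-41) to 0.52 (Blm). No source used here says whether these fold changes were shrunken towards 0. The largest SE in the authors' deposited table was 0.22, although its lowest mean was 1.07 normalized counts. The SE was 0.11 for aurB (mean 1.16) and 0.13 for spn-D (mean 2.01), below the 0.22 of lok (mean 28.1). Counting error alone would make the SE larger at lower means. The changes of the 8 genes may thus be drawn towards 0 and their intervals too narrow.

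**Figure D5:**
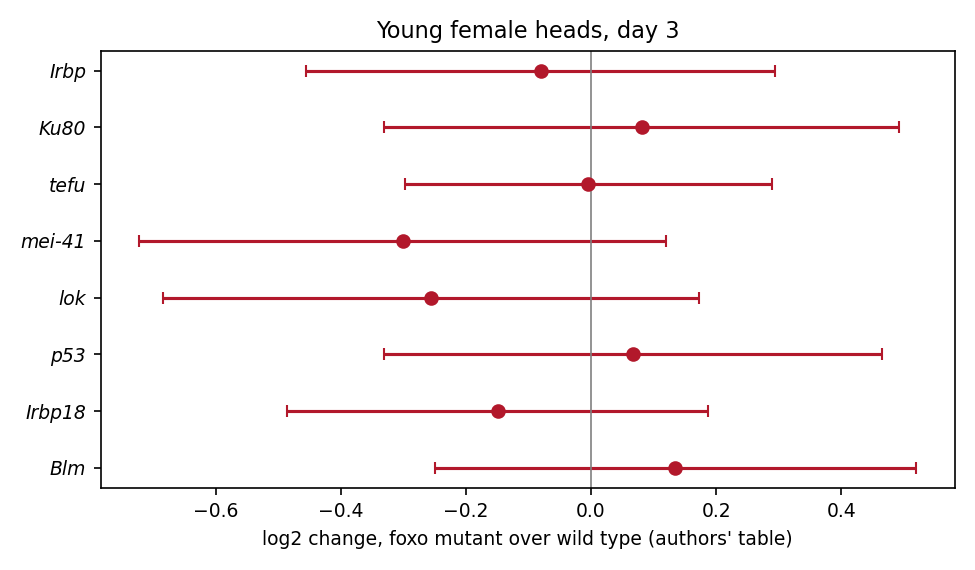
Log2 change of foxo mutant over wild-type females at day 3 for the 8 genes, from the authors' deposited table, with 95% intervals from its SE. Every interval spans 0, from -0.72 at the lowest for mei-41 to 0.52 at the highest for Blm.

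The wider pathway also held 0 called genes in the mutant comparison. Of 77 further genes with an adjusted p, 0 were called in the authors' deposited table. An unadjusted p under 0.05 was found there for 4 of 78 further genes with a p (5.13%) and for 21.5% of all genes with a p. These 4, named after their values were seen, were spn-D, which had no adjusted p, RecQ5 (log2 change -0.37, adjusted p = 0.0677), a helicase of the family of Blm, RPA1 (-0.28, adjusted p = 0.198) and the crosslink nuclease gene Snm1 (0.42, adjusted p = 0.209) in the authors' deposited table. RnrL, which rose with age, is given by the authors' deposited table at 0.42 (adjusted p = 0.24) and Xrp1 at 0.08 (adjusted p = 0.648). The median of the 77 was -0.01 and that of all genes with an adjusted p 0.004. Females and males were normalized in separate tables, and no level was compared between them.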

How the data were processed

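Per the submitters' processing notes, STAR, HTSeq and DESeq were used with build dm6, with no versions given. Per the labels' protocols, Trizol-extracted head RNA was enriched for polyadenylated RNA before NEBNext Ultra library preparation. The male table was deposited as a signal, read counts that the authors scaled by 1 size factor per library. Divided by the smallest value above 0 in their library, all values were whole numbers to within 0.001, and the whole numbers were used as reads for depth and for count-based alternatives. For 3 libraries that smallest value is within 1% of 1. The female table is the authors' own comparison: a mean signal, log2 fold change with SE, test score, p-value and adjusted p-value per gene, as the authors deposited them.

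Ages were fitted by limma with an intensity trend on log2(value + 1) in 1 model of 12 male libraries, for the 8921 genes that reached 10 in 3 or more libraries, and p-values were adjusted over all of them. The step was tested on simulated data. FlyBase identifiers gave 10701 of 10884 male genes a symbol, and female names were matched by symbol (8340) or synonym (2020). Exon lengths and overlaps came from Ensembl annotation of dm6. The 8 genes, the 7 pathway lists and the 7 marker lists were chosen with earlier results of these data known. Named beside the 8 genes were up to 3 genes of largest change among the calls of each pathway list at day 45, any gene of these lists called in the mutant, and the 3 genes most like Irbp and Ku80. Other genes are given for their roles. Alternatives changed the pseudocount, filter, scaling, libraries, replicate block and tool. Intervals given from reads cover counting error only. Tools were R 4.3.3, limma 3.58.1, edgeR 4.0.16, DESeq2 1.42.0, Python 3.11.15, numpy 2.4.6, pandas 2.3.3, scipy 1.17.1 and matplotlib 3.10.9.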

Additional observations from a re-analysis of the deposited data

How the results depend on the processing

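Of 489 recomputed changes with age of the 8 genes, 488 moved by less than 1 SD between replicates. The exception was Ku80 at day 45, whose log2 change was 1.01 with a pseudocount of 10. Most alternatives could not move a change that far. Leaving out 1 of 3 libraries shifts a mean by less, and a filter or the block leaves it unchanged. Changes whose libraries did not overlap kept their sign, which leaving out a library could not alter. Stability is therefore not read from this count. Leaving out each library in turn gave 1.26 to 1.54 for Irbp and 1.16 to 1.44 for Ku80 at day 45. With a mean of at least 50 required, Irbp, Irbp18 and tefu alone remained of the 8. The count of genes called at day 15 was 620 to 1430 with a library left out, against 1193 with all, and fell most without day 15 replicate 1 (620) or day 3 replicate 1 (624), and to 769 without day 15 replicate 3. The counts at days 30 and 45 stayed within 1.5 times under all 21 alternatives, at 2121 to 2989 and 2483 to 3207. The 16 pathway genes higher at day 45 became 10 with a mean of at least 50 and 8 by DESeq2, and 9 to 17 with a library left out. edgeR called 17 pathway genes higher. The cause was not tested. RnrL, Xrp1, rad50, RPA1 and MCPH1 passed under every alternative that tested them. In the mutant, 0 of the 8 genes and 0 of the pathway genes were also called with p adjusted over all genes or over those with a mean of at least 50. The genes most like Irbp and Ku80 were others by Spearman's rank correlation, Spn42Dd (0.986) and mthl10 (0.958) leading.

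The replicate number as a block left 3118 calls at day 45 against 3184, and 16 pathway genes higher. Nothing in the labels pairs the ages. Deviations of same-numbered libraries correlated at a median of 0.01, as did others (0.01), and 2 of 18 pairs were over 0.1. Depth limits the precision: Ku80, mei-41, lok and Blm rest on 15 to 65 reads per library, and their 95% intervals at day 45 span about 0.9 on the log2 scale.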
